A study of Mus musculus with 6 samples.

Results

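The insulin-like growth factor (IGF) axis was examined in aortas of aged mice, with 9 genes chosen by name: the ligand gene Igf1, the receptor genes Igf1r and Igf2r, and 6 genes of IGF binding proteins, Igfbp2 to Igfbp7. Of these, 8 had rows in the expression table, among 8690 gene names in all, and 8 were tested among 8605 genes. Igf1r was not analysed here. Whole aortas came from C57BL/6 mice described only as aged, of the genotypes WT and Sirt2-KO, with 3 mice in each group. WT aortas are called replicates 2, 4 and 8 and Sirt2-KO aortas replicates 4, 7 and 8, after the sample titles, and values are listed in that order. No other treatment or allele is stated, and the sources used here do not say whether Sirt2, a NAD-dependent deacetylase, was removed from all cells or how. Expression was measured by RNA sequencing and is given in FPKM, which scales fragment numbers to the length of the transcript and the size of the library, so that levels can be compared between genes.

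IGF1 and IGF2 are small secreted hormones that resemble insulin. They act through the IGF1 receptor tyrosine kinase, whereas the IGF2 receptor takes IGF2 into the lysosome and also sorts lysosomal enzymes that carry mannose 6-phosphate. IGF binding proteins hold the ligands in blood and tissue fluid, lengthen their life, and release them when proteases cut the carrier. In vessel walls the axis is known for effects on growth and survival of smooth muscle, and the binding proteins are made by smooth muscle, fibroblasts, fat and endothelium in differing mixtures.

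Sirt2 stood at 26.5, 34.1 and 49.2 FPKM in the WT aortas, against 2.56, 3.32 and 2.23 FPKM in the Sirt2-KO aortas, so each library followed its label. The smooth muscle genes Acta2 (3447 to 8512 FPKM over the 6 aortas) and Myh11 (645 to 1355 FPKM) were high in every library. Of 10 smooth muscle markers, none was at 0 in any aorta. In limma, 250 of the 8605 genes passed an adjusted p of 0.05, which is 2.91%, and 24.8% had an unadjusted p under 0.05. WT replicate 4 stood apart in the summed heart and skeletal muscle markers, at 510.6 FPKM against 58.6 to 70.6 FPKM in the other aortas. Without it the log2 differences of the members were 1.24 for Igf1, 1.65 for Igfbp4, 1.47 for Igfbp2, 1.31 for Igfbp5, 1.84 for Igfbp6, -0.34 for Igf2r, 0.45 for Igfbp3 and -0.39 for Igfbp7. Summed adipocyte markers were lowest in WT replicate 8, at 624 FPKM against 2401 and 2323.5 FPKM in WT replicates 2 and 4. Its brown adipocyte sum was 95.9 FPKM, against 425.5 to 913 FPKM in the other aortas. Without WT replicate 8 the log2 differences were 0.99 for Igf1, 1.44 for Igfbp4, 2.28 for Igfbp2, 1.40 for Igfbp5 and 1.71 for Igfbp6. For Igf2r, Igfbp3 and Igfbp7 they were -0.25, 0.01 and -0.10. The log2 differences below are of FPKM + 1, Sirt2-KO minus WT, with adjusted p over all tested genes, and means carry the SD over 3 mice.

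Igf1 and Igfbp4 rose in Sirt2-KO aortas, and they were the 2 of 8 tested members that passed, against the 2.91% of all genes. Igf1 may have been kept only through its Sirt2-KO values, by the variance limit described below, so its call and separation carry no weight. Igfbp2, Igfbp5 and Igfbp6 were also higher in each Sirt2-KO aorta than in any WT aorta, by 2.74-fold to 3.71-fold in the means, but missed the threshold. Igf2r was lower in each Sirt2-KO aorta. Igfbp3 and Igfbp7, the gene with by far the most RNA, overlapped between the groups. In all, the groups did not overlap in 6 of 8 members, Igf1 among them, against 33.3% of all tested genes. Each of those 6 gave an exact two-sided permutation p = 0.1 for the difference of means, the smallest that 3 against 3 allows, while Igfbp3 gave p = 0.8 and Igfbp7 p = 0.7.

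**Figure D1:**
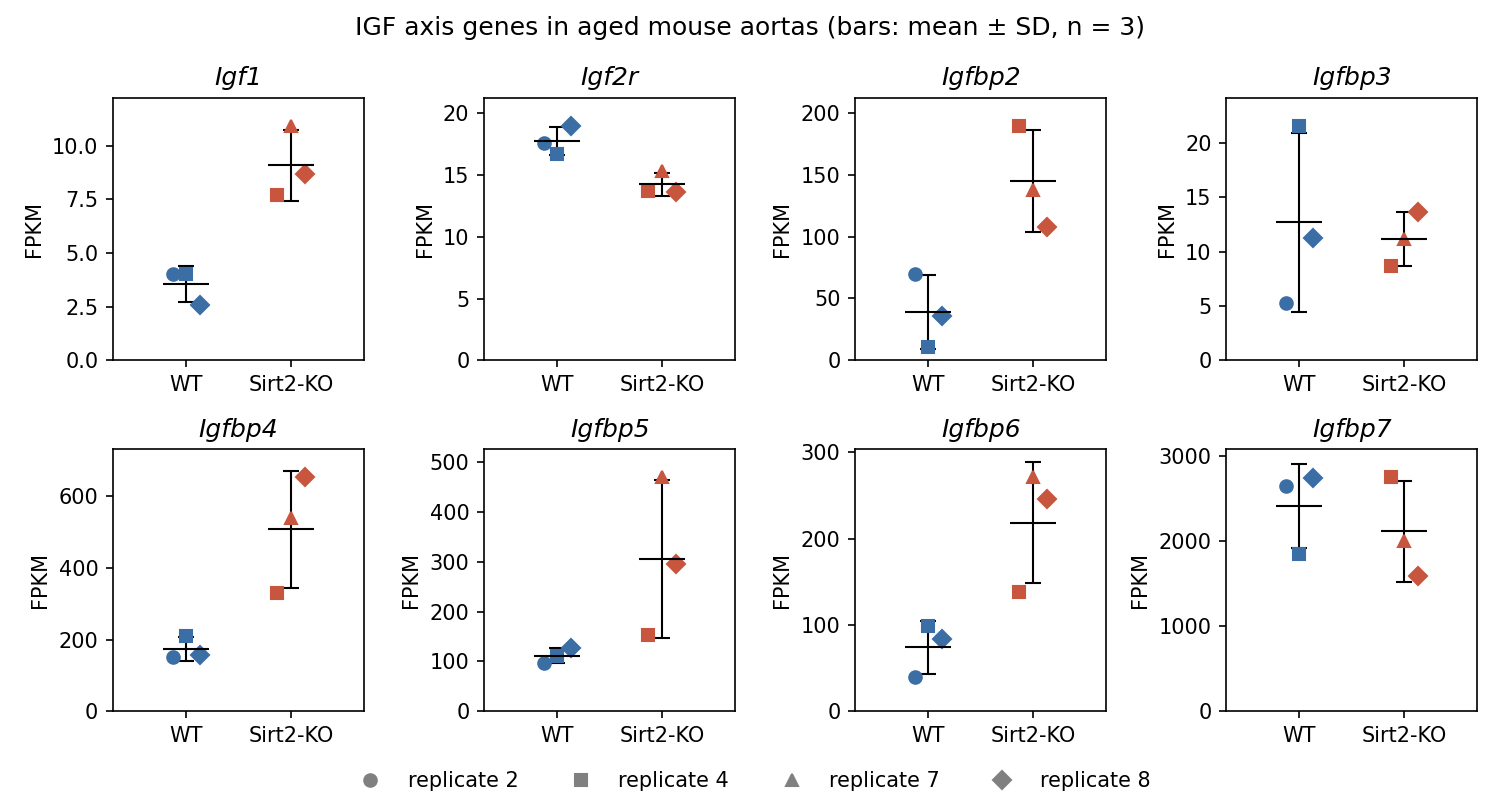
FPKM of the 8 IGF axis genes in each aorta, by genotype, with the marker shape giving the replicate number and the bars the mean ± SD of 3 mice. Igf1, Igfbp2, Igfbp4, Igfbp5 and Igfbp6 lie higher in all Sirt2-KO aortas, Igf2r lies lower, and Igfbp3 and Igfbp7 overlap.

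Igf1 encodes the ligand, which liver releases into the blood and which many tissues also make locally. It was at 4.03, 4.04 and 2.58 FPKM in the WT aortas, against 7.69, 10.9 and 8.67 FPKM in the Sirt2-KO aortas. The lowest Sirt2-KO aorta was thus above the highest WT aorta. The mean went from 3.55 ± 0.837 to 9.09 ± 1.65 FPKM, 2.56-fold (log2 difference 1.15, SE 0.214, adjusted p = 0.0414 in limma). The call was lost when any 1 of the 6 mice was left out, with adjusted p from 0.0527 to 0.175, although the difference stayed between 0.99 and 1.26.

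Igf1 is the lowest of the members, and the table keeps no row with a variance under 1 FPKM squared over the 6 aortas. Its 2 rows had variances of 1.96 and 3.68, and SDs of 0.583 and 0.343 FPKM among WT aortas alone. A row with the WT spread in all aortas would therefore lie under that limit, and the rows tested at this low level are those that varied more. The separation of Igf1 between the groups thus carries no weight. The first row was at 2.35, 2.73 and 1.59 FPKM in the WT aortas, against 4.51, 5.03 and 4.42 FPKM in the Sirt2-KO aortas. The second was at 1.68, 1.31 and 0.997 FPKM in the WT aortas, against 3.18, 5.88 and 4.25 FPKM in the Sirt2-KO aortas. Neither overlapped between the groups, and with the first row alone Igf1 showed a difference of 0.83 that missed the threshold (adjusted p = 0.146). The table gives the rows no identifiers, so they cannot be assigned to transcripts, and Igf1 overlaps the antisense gene Igf1os in the RefSeq annotation.

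IGFBP4, a carrier that holds IGFs until the protease PAPP-A cuts it, had the second highest RNA level among the binding proteins. Igfbp4 was at 152, 211 and 159 FPKM in the WT aortas, against 332, 539 and 654 FPKM in the Sirt2-KO aortas. All Sirt2-KO values exceeded the WT range, and replicate 4 was the lowest of them. The mean rose from 174 ± 32.5 to 508 ± 163 FPKM, 2.92-fold (log2 difference 1.50, SE 0.271, adjusted p = 0.0381). It still passed without WT replicate 4 (adjusted p = 0.0482) or Sirt2-KO replicate 4 (0.0180), and not without WT replicate 2 (0.121), WT replicate 8 (0.0960), Sirt2-KO replicate 7 (0.155) or Sirt2-KO replicate 8 (0.147). Its highest of 3 rows held 94.9 to 98.2% of the sum, and both smaller rows were also apart between the groups, at most 7.35 against at least 8.03 FPKM in the second and at most 2.76 against at least 3.25 FPKM in the third.

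**Figure D2:**
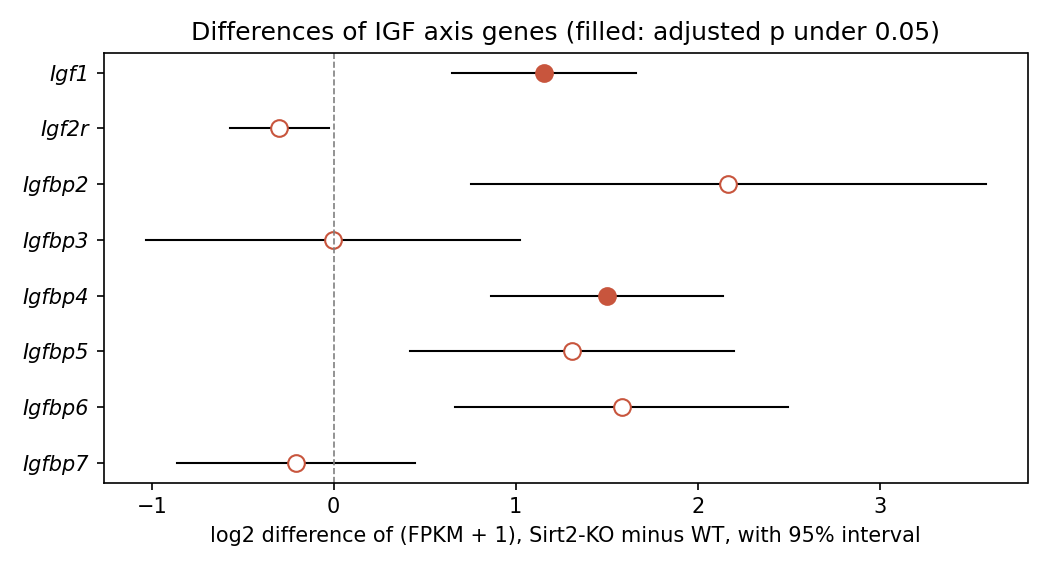
Log2 difference of FPKM + 1, Sirt2-KO minus WT, for each of the 8 genes, with 95% intervals from limma. The filled points are Igf1 at 1.15 and Igfbp4 at 1.50, and the intervals of Igfbp3 and Igfbp7 cross 0.

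The stretches of 250 bases before and 50 bases after the RefSeq gene start are shown for the 2 genes that rose and for Igfbp7, the most abundant member. They are from RefSeq on GRCm38.p6, a later build than the mm9 named for the files, and all 9 member names matched an entry. Capitals mark matches, on either strand, to the TATA box TATAAA, the CCAAT box CCAAT, the GC box GGGCGG or the E-box CACGTG. The Igf1 stretch is chr10:87860861-87861160 on the + strand, that of Igfbp4 is chr11:99040994-99041293 on the + strand, and that of Igfbp7 is chr5:77407996-77408295 on the - strand.
Igf1: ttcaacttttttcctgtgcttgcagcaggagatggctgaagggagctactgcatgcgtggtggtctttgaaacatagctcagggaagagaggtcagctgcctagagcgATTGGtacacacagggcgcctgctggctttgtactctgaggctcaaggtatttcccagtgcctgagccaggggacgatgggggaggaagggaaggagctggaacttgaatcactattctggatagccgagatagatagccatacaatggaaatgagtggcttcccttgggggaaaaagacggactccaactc
Igfbp4: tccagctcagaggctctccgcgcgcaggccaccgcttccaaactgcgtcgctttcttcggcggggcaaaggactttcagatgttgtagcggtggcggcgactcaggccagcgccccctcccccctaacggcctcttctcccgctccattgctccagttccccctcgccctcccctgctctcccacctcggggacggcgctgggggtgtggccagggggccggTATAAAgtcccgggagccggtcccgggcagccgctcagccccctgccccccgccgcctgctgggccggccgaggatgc
Igfbp7: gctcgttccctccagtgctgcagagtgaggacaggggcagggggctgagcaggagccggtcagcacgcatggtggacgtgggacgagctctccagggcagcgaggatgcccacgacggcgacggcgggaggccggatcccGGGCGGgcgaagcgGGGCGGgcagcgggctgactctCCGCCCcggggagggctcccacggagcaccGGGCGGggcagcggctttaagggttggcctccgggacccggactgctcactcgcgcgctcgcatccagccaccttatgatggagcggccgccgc
Igfbp4 has a TATA box from -28 to -23 relative to the start, which 13.6% of all 32851 RefSeq promoters of this length hold in some position on either strand. Igf1 has a CCAAT box on the reverse strand from -142 to -138 (37.4% of promoters), and Igfbp7 has 4 GC boxes (35.7% hold at least 1). The Igfbp2 stretch at its first listed start holds 3 GC boxes and an E-box, a motif found in 7.15% of promoters, that of Igfbp6 holds 2 CCAAT boxes and a TATA box on the reverse strand, and those of Igfbp3 and Igfbp5 hold none of the 4 motifs. The stretch of Igf2r, which was lower in each Sirt2-KO aorta, holds 3 GC boxes and 2 E-boxes. None of the 4 motifs was found in all 5 genes that were higher in each Sirt2-KO aorta. The matches are descriptions of the sequence and say nothing of which factor binds.

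IGFBP5 binds matrix as well as IGFs, and IGFBP6 prefers IGF2. Igfbp5 was at 97.3, 111 and 127 FPKM in the WT aortas, against 153, 469 and 296 FPKM in the Sirt2-KO aortas. Sirt2-KO replicate 4 lay just above the WT range and replicate 7 far above it. The mean was 112 ± 14.8 FPKM in WT and 306 ± 158 FPKM in Sirt2-KO (log2 difference 1.31, SE 0.376, adjusted p = 0.106), and the gene passed when Sirt2-KO replicate 4 was left out (log2 difference 1.73, adjusted p = 0.0264). It did not pass without any other single mouse (adjusted p from 0.153 to 0.301), and the difference was 0.93 without Sirt2-KO replicate 7.

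Igfbp6 was at 40.3, 99.3 and 83.6 FPKM in the WT aortas, against 139, 271 and 246 FPKM in the Sirt2-KO aortas. The groups were apart and both were widely spread, with means of 74.4 ± 30.6 and 219 ± 70.5 FPKM (log2 difference 1.58, SE 0.386, adjusted p = 0.0780). Without any single mouse its adjusted p lay between 0.0625 and 0.252.

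Igfbp2, which encodes a carrier made by many tissues and is a neighbour of Igfbp5 on mouse chromosome 1, had the largest difference of the 8 members and, in WT, the largest SD relative to its mean. It was at 70.1, 11.0 and 36.0 FPKM in the WT aortas, against 189, 137 and 108 FPKM in the Sirt2-KO aortas. WT replicate 4 was the lowest aorta and Sirt2-KO replicate 4 the highest. The means of 39.0 ± 29.6 and 145 ± 41.1 FPKM differed 3.71-fold (log2 difference 2.17, SE 0.599, adjusted p = 0.0987), and the difference was 1.47 without WT replicate 4 and 2.75 without WT replicate 2.

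Igfbp3, the main carrier in blood, was low in the aorta, at 5.29, 21.5 and 11.3 FPKM in WT, against 8.69, 11.2 and 13.7 FPKM in Sirt2-KO. The WT aortas alone spanned the whole Sirt2-KO range. The log2 difference was -0.00 (95% interval -1.03 to 1.03, adjusted p = 0.997), and it was 0.45 without WT replicate 4 and -0.47 without WT replicate 2.

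Igfbp7 encodes a carrier of low IGF affinity that vessels make in quantity. It was at 2645, 1849.6 and 2749 FPKM in the WT aortas, against 2754, 1999 and 1592 FPKM in the Sirt2-KO aortas. Of the 6 aortas, Sirt2-KO replicate 4 was the highest and Sirt2-KO replicate 8 the lowest, and the groups overlapped. The log2 difference was -0.21 (95% interval -0.86 to 0.45, adjusted p = 0.644) and lay between -0.41 and -0.02 with 1 mouse left out, and the gene body overlaps Polr2b in RefSeq, so reads of the pair may not be separable. The second row held at most 1.88% of the sum and was apart between the groups, at 21.9 to 29.2 FPKM in WT and 29.9 to 40.5 FPKM in Sirt2-KO.

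Igf2r, the clearance receptor, showed the steadiest values of all members. It was at 17.6, 16.7 and 19.0 FPKM in the WT aortas, against 13.7, 15.3 and 13.7 FPKM in the Sirt2-KO aortas. Every Sirt2-KO aorta was lower than every WT aorta, with means of 17.8 ± 1.15 and 14.3 ± 0.946 FPKM (log2 difference -0.30, SE 0.115, adjusted p = 0.173). The gene overlaps the antisense RNA gene Airn, and the sources used here do not say whether counting used strand. Airn itself averaged 3.85 FPKM in WT and 1.47 FPKM in Sirt2-KO (log2 difference -0.98, adjusted p = 0.0985 in limma). Whether reads of Airn entered the Igf2r values was not tested.

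Ordered by mean WT level, Igfbp7 came first and was followed by Igfbp4, Igfbp5, Igfbp6, Igfbp2, Igf2r, Igfbp3 and Igf1. In WT, Igfbp7 was apart from Igfbp4 and Igfbp4 from Igfbp5, the genes from Igfbp5 to Igfbp3 each overlapped the next in the order, and Igfbp3 was apart from Igf1. The order of means was the same in Sirt2-KO, where Igfbp4, Igfbp5, Igfbp6 and Igfbp2 formed a run of overlapping neighbours between Igfbp7 and Igf2r. Igfbp3 overlapped Igf1 in Sirt2-KO (8.69 FPKM at the lowest against 10.9 FPKM at the highest) and not in WT.

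The make-up of the binding protein RNA was described from the same values, so it gives no result apart from the single genes. Summed without Igfbp7, Igfbp2 to Igfbp6 came to 365, 455 and 417 FPKM in WT and to 822, 1428 and 1317 FPKM in Sirt2-KO. Sirt2-KO replicate 4 was again nearest to WT. Igfbp7 made up 87.9, 80.3 and 86.8% of the sum of all 6 binding proteins in WT and 77.0, 58.3 and 54.7% in Sirt2-KO. Within Igfbp2 to Igfbp6, Igfbp4 had a share of 42.1 ± 4.20% in WT and 42.6 ± 6.25% in Sirt2-KO and Igfbp6 one of 17.7 ± 5.79% and 18.2 ± 1.15%. These shares overlapped between the groups, as did those of Igfbp2 and Igfbp5. The share of Igfbp3 was 1.45, 4.74 and 2.71% in WT and 1.06, 0.782 and 1.04% in Sirt2-KO. The summed FPKM of these 5 carriers was 90.6, 113 and 161 times that of Igf1 in WT and 107, 131 and 152 times in Sirt2-KO, so the ratio of carrier to ligand RNA overlapped between the groups. No test was made on these sums.

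**Figure D3:**
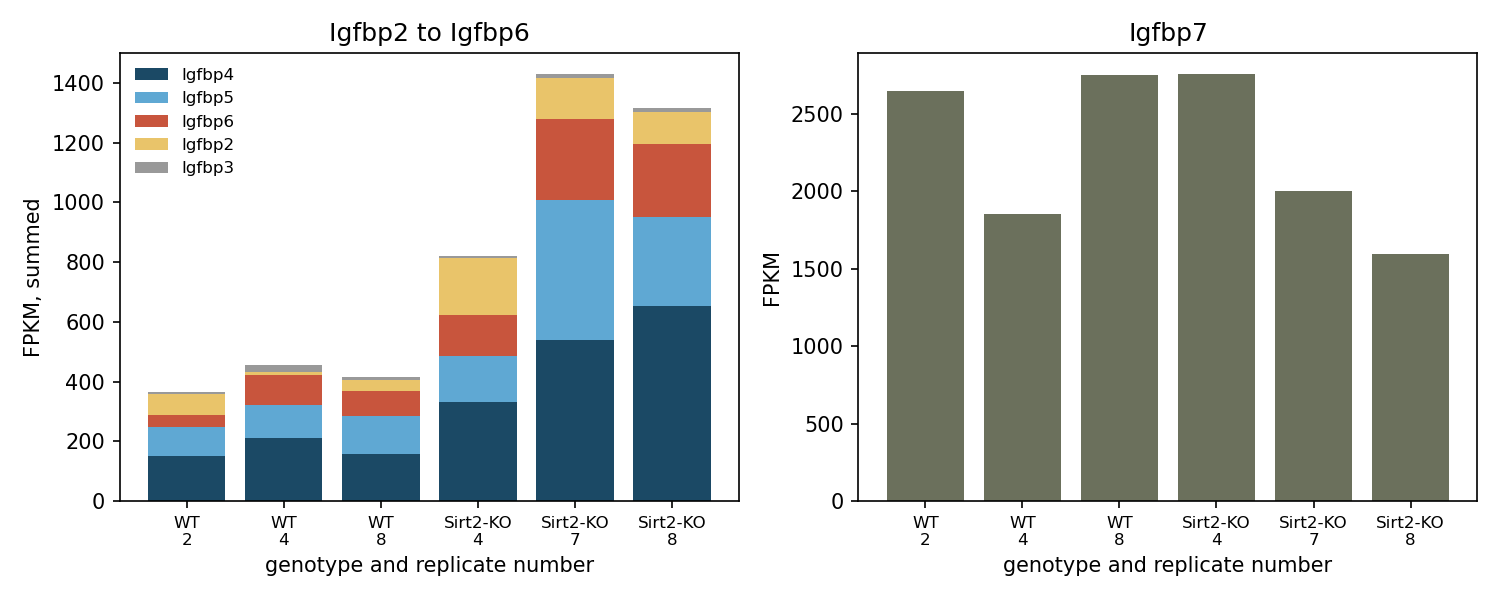
FPKM of Igfbp2 to Igfbp6 stacked for each aorta (left) and of Igfbp7 (right). The stacks reach 365 to 455 FPKM in WT and 822 to 1428 FPKM in Sirt2-KO, while Igfbp7 spans 1592 to 2754 FPKM with no separation of the groups.

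Among the 3 Sirt2-KO aortas, replicate 4 had the lowest Igf1, Igfbp3, Igfbp4, Igfbp5 and Igfbp6 and the highest Igfbp2 and Igfbp7. Likeness of profiles was measured as the root mean square distance between log2(FPKM + 1) values of the 6 aortas, each gene centred on its mean. Among the members, Igf2r and Igfbp7 were closest at 0.280. The median distance to 5505 non-members averaging 10 FPKM or more was 0.256 for Igf2r and 0.344 for Igfbp7, so this pair was not unusually alike. Next came Igfbp4 and Igfbp6 at 0.327, Igf1 and Igfbp4 at 0.345 and Igfbp4 and Igfbp5 at 0.366. Of 5505 non-members averaging 10 FPKM or more, those most like Igf1 were Mfng, a glycosyltransferase gene of the Notch pathway (distance 0.127), the thiolase gene Acat2 (0.140) and the MHC class I gene H2-K1 (0.159), against a median distance of 0.671.

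Marker lists of cell types differed in both directions, some upward and some downward in Sirt2-KO. Over all tested genes, 2.91% passed, 24.8% had an unadjusted p under 0.05 in limma and the median log2 difference was -0.08. Each count below is to be read against these shares. Of 11 adventitial fibroblast markers 11 were higher in Sirt2-KO and 5 passed, and their summed level was 558 to 850 FPKM in WT and 1315 to 2516 FPKM in Sirt2-KO. Pdgfra, a growth factor receptor that marks fibroblasts, was at 5.06, 7.14 and 7.50 FPKM in the WT aortas, against 11.3, 25.3 and 22.1 FPKM in the Sirt2-KO aortas. Of 9 tested adipocyte markers 9 were higher and 3 passed, with sums of 624 to 2401 and 5121 to 7368 FPKM. Of 10 macrophage markers 10 were higher and 1 passed, with sums of 103 to 254 and 311 to 536 FPKM. Of 10 smooth muscle markers 10 were lower and 0 passed in limma, 3 at an unadjusted p under 0.05 (24.8% of all genes), with sums of 9194 to 17209 and 7753 to 14119 FPKM. No marker in these 4 lists was at 0 in any aorta. Of 8 endothelial markers 7 were lower and 0 passed in limma (3 at an unadjusted p below 0.05), and of 5 red blood cell genes 5 were higher and 0 passed (4 at an unadjusted p below 0.05). Of 7 Schwann cell markers 6 were lower and 2 passed downward, with sums of 145 to 279 FPKM in WT and 120 to 137 FPKM in Sirt2-KO. Of 8 tested heart and skeletal muscle markers 8 were lower and 0 passed in limma, 2 at an unadjusted p below 0.05. Of 5 tested brown adipocyte markers 3 were higher and 0 passed in limma, 1 at an unadjusted p below 0.05, and of 4 tested lymphocyte markers 3 were higher and 1 passed.

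Set against the summed fibroblast markers of the same aorta, Igfbp4 was 27.2, 24.9 and 22.4% of that sum in WT and 25.2, 21.4 and 30.8% in Sirt2-KO. Igfbp6 was 7.22, 11.7 and 11.8% in WT and 10.5, 10.8 and 11.6% in Sirt2-KO, and Igfbp5 was 17.4, 13.1 and 17.9% against 11.7, 18.7 and 13.9%. Igf1 was 0.722, 0.475 and 0.365% in WT and 0.585, 0.434 and 0.408% in Sirt2-KO. On this relative scale the groups overlapped for each of these 4 genes, and for Igfbp2, at 1.30 to 12.6% in WT and 5.08 to 14.4% in Sirt2-KO. The summed adipocyte, macrophage, red blood cell and lymphocyte markers were likewise higher in each Sirt2-KO aorta than in any WT aorta. The members were not set against those sums, so the overlap on this scale cannot be tied to fibroblasts. In bulk tissue, more cells of a type and more RNA per cell cannot be told apart, and the part of these markers in the differences was not tested.

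Around the members, 68 of 95 listed genes of the pathway were tested and 3 passed (2.91% of all tested genes did), Htra3 and Wisp2 upward and Itgav downward. The groups were apart in 29 of the 68 (42.6%, against 33.3% of all tested genes), and the median log2 difference was -0.11 against -0.08 over all tested genes. Igfals and Stat5a, which were tested only through their Sirt2-KO values, are among the 29. Among the members the median was 1.23, which lies between Igf1 (1.15) and Igfbp5 (1.31). It thus rests in part on Igf1 and carries no weight either.

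**Figure D4:**
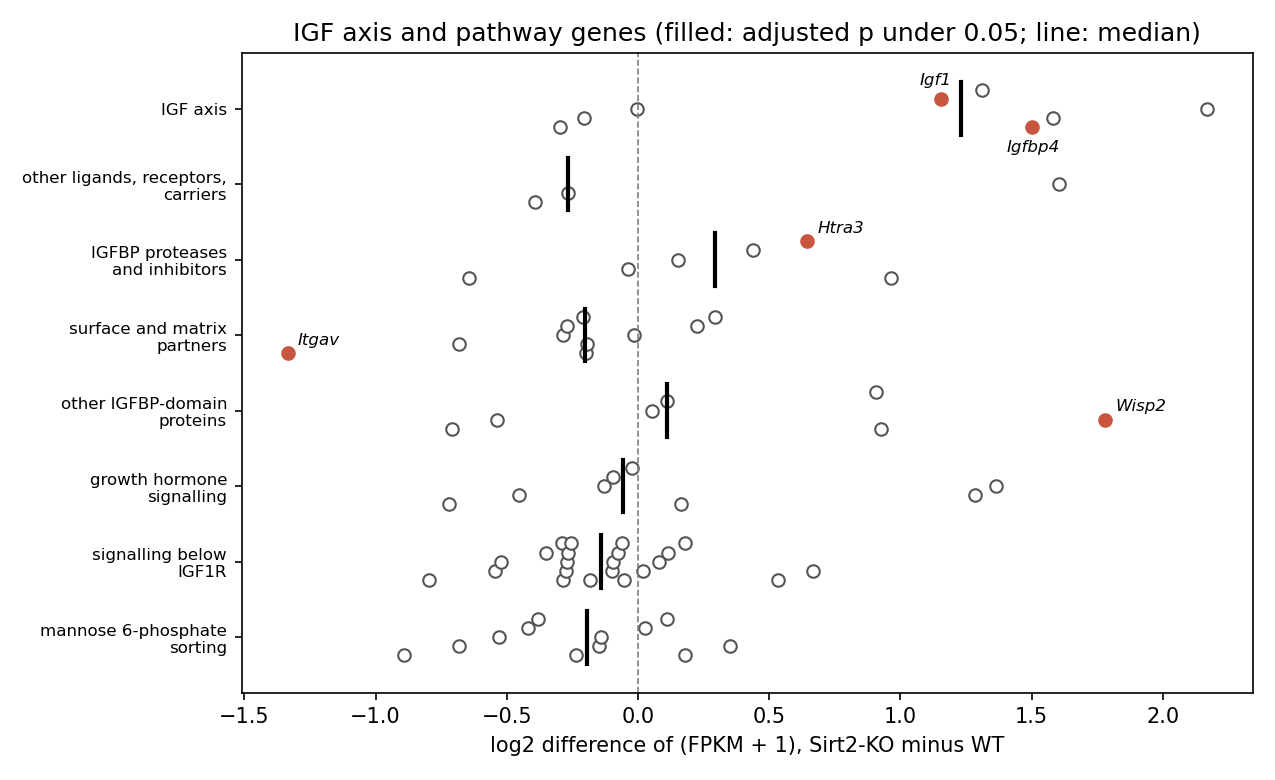
Log2 difference of FPKM + 1, Sirt2-KO minus WT, of each tested gene of the IGF axis and of 7 lists of pathway genes, with the median of each list as a line. Filled points passed in limma: Igf1 (1.15), Igfbp4 (1.50), Htra3 (0.64), Wisp2 (1.78) and Itgav (-1.34).

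The second ligand gene, Igf2, was at 6.99, 16.7 and 11.1 FPKM in the WT aortas, against 6.50, 9.29 and 8.78 FPKM in the Sirt2-KO aortas (log2 difference -0.39, adjusted p = 0.420). Leaving out WT replicate 4 gave a difference of -0.11, WT replicate 2 one of -0.68 and Sirt2-KO replicate 4 one of -0.25, while its highest row alone gave -0.12. Its groups overlapped, whereas the ratio of Igf1 to Igf2 did not, at 0.576, 0.242 and 0.233 in WT and 1.18, 1.17 and 0.988 in Sirt2-KO. That ratio rests on the Igf1 values and carries no weight either. Igfals, the subunit that joins IGFs and IGFBP3 or IGFBP5 into a large complex in blood, was at 0.824, 0.611 and 0.138 FPKM in the WT aortas, against 3.83, 4.42 and 2.58 FPKM in the Sirt2-KO aortas (log2 difference 1.60, adjusted p = 0.0760). Its WT mean of 0.524 FPKM lay under the minimum of 1 FPKM for testing, so it was tested only through its Sirt2-KO values, and its separation carries no weight. Of this list of 10 ligands, receptors, carriers and IGF2 mRNA-binding proteins 3 were tested and 0 passed in limma, 1, Igfals, at an unadjusted p under 0.05 (24.8% of all genes). The insulin receptor gene Insr differed by -0.27 (adjusted p = 0.430).

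Among 6 tested proteases and inhibitors that act on binding proteins, Htra3, a secreted serine protease with an IGFBP-type domain, rose from 65.5 ± 2.60 to 103 ± 12.9 FPKM. It was at 63.3, 68.3 and 64.7 FPKM in the WT aortas, against 96.4, 118 and 95.2 FPKM in the Sirt2-KO aortas (log2 difference 0.64, SE 0.126, adjusted p = 0.0490). It lost the call without any 1 of the 6 mice (adjusted p 0.0577 to 0.167), and its highest row alone differed by 0.35 (adjusted p = 0.302). Its relative Htra4 (log2 difference 0.96, adjusted p = 0.110) and the lysosomal protease gene Ctsd (0.44, adjusted p = 0.162) were apart between the groups and did not pass, and with its highest row alone Ctsd differed by 0.12.

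Among 7 tested genes of other secreted or membrane proteins with an IGFBP-type domain, Wisp2, also called Ccn5, had the smallest p. It was at 42.2, 28.8 and 46.9 FPKM in the WT aortas, against 118, 161 and 128 FPKM in the Sirt2-KO aortas. The groups were far apart, and the mean rose from 39.3 ± 9.39 to 136 ± 22.7 FPKM (3.46-fold, log2 difference 1.78, SE 0.211, adjusted p = 0.0137). It passed without 4 of the 6 mice in turn and not without Sirt2-KO replicate 7 or 8 (highest adjusted p = 0.0851). Crim1, a membrane protein gene, differed by -0.71 (adjusted p = 0.0784), and the endothelial proteoglycan gene Esm1 by 0.91 (adjusted p = 0.105).

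Among 10 surface and matrix partners of the carriers, Itgav, the integrin alpha V subunit, fell from 19.3 ± 1.69 to 7.03 ± 0.280 FPKM. It stood at 18.8, 17.9 and 21.2 FPKM in the WT aortas, against 7.22, 7.16 and 6.71 FPKM in the Sirt2-KO aortas (log2 difference -1.34, SE 0.121, adjusted p = 0.00455), and it passed without each of the 6 mice. With its highest row alone it did not pass (adjusted p = 0.0930). Its partner subunit gene Itgb1 differed by -0.68 (adjusted p = 0.135), and Tmem219, a receptor for IGFBP3, by 0.29 (adjusted p = 0.166), or by 0.73 with its highest row alone (adjusted p = 0.122).

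Growth hormone drives Igf1 transcription in liver through the receptor Ghr and the kinase Jak2. Ghr was at 30.2, 38.4 and 14.8 FPKM in the WT aortas, against 67.9, 61.7 and 64.2 FPKM in the Sirt2-KO aortas, apart between the groups (log2 difference 1.28, SE 0.315, adjusted p = 0.0780). It passed without WT replicate 4 or WT replicate 8, and not without any other single mouse (adjusted p from 0.114 to 0.237). Jak2 was lower in each Sirt2-KO aorta (11.0 ± 1.30 against 7.78 ± 0.736 FPKM, log2 difference -0.45, adjusted p = 0.123). Of 8 tested genes in this list 0 passed in limma and 3 had an unadjusted p under 0.05 (24.8% of all genes).

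Below the IGF1 receptor, 0 of 22 tested adaptors and kinases passed in limma, with 5 at an unadjusted p under 0.05 (24.8% of all genes) and a median log2 difference of -0.14. The smallest p were those of Grb14, an adaptor that restrains insulin receptor signalling (25.4 ± 3.50 against 14.3 ± 2.49 FPKM, log2 difference -0.80, adjusted p = 0.0573), and of the kinase gene Akt2 (50.1 ± 3.48 against 73.4 ± 10.95 FPKM, 0.53, adjusted p = 0.0854). With its highest row alone Akt2 differed by 1.90 (adjusted p = 0.196). Of 12 genes that share the mannose 6-phosphate sorting route with Igf2r, 0 passed in limma, with 5 at an unadjusted p below 0.05 (24.8% of all genes). The retromer subunit genes Vps29 (log2 difference -0.53, adjusted p = 0.0768) and Vps35 (-0.38, adjusted p = 0.113) had the smallest p, and both were lower in each Sirt2-KO aorta. With its highest row alone Vps29 differed by -0.87 (adjusted p = 0.240).

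Tested as single rows, 0 of the 13 rows of the members passed in limma, against 0.851% of 13627 rows, with 8 at an unadjusted p below 0.05 (17.2% of all rows). The smallest adjusted p was that of the main Igfbp4 row, at 0.0721. The groups were apart in 10 of the 13, the Igf1 rows among them, against 27% of all rows.

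**Figure D5:**
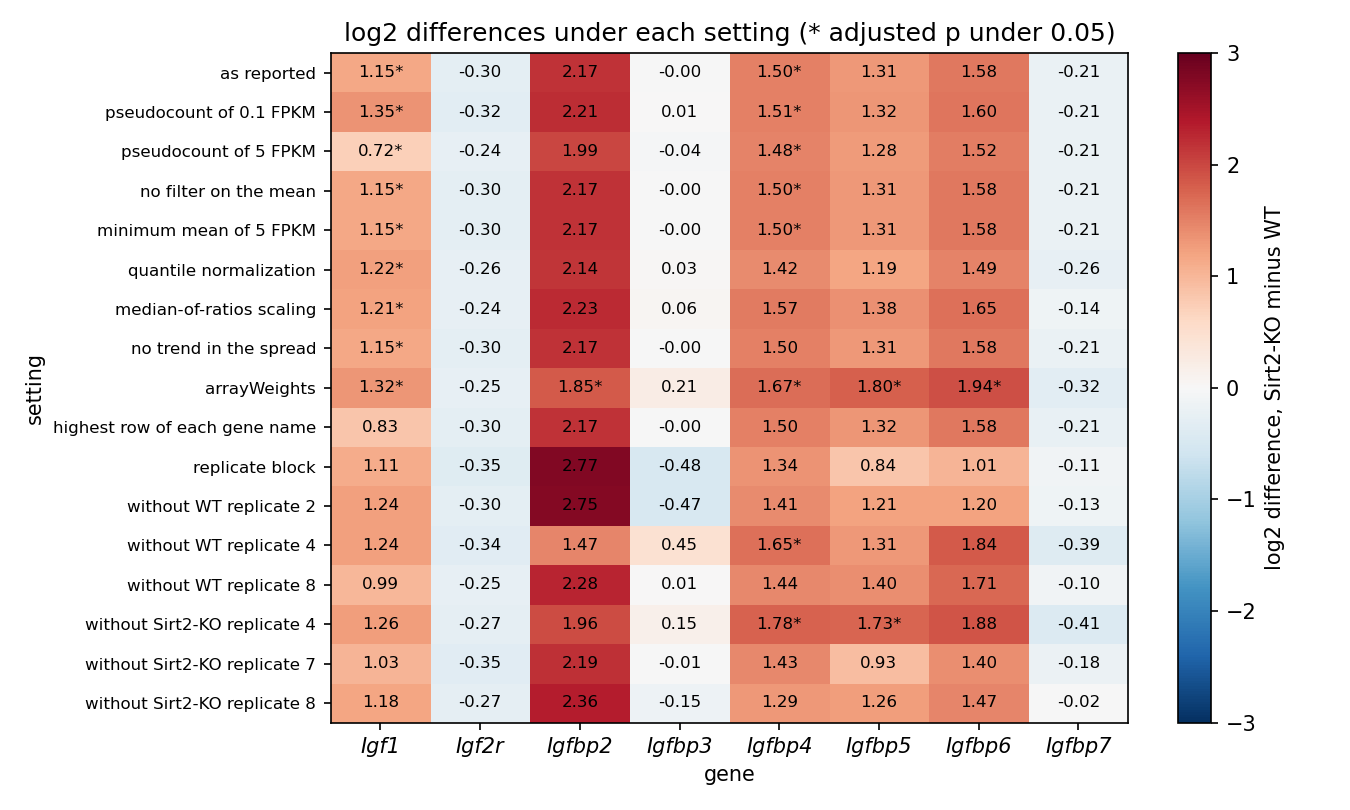
Log2 difference of FPKM + 1, Sirt2-KO minus WT, of the 8 genes (columns) as reported and under 16 other settings (rows), with an asterisk where adjusted p was under 0.05. Igf1 and Igfbp4 kept a positive difference throughout, from 0.72 to 1.35 and from 1.29 to 1.78, while their calls came and went.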

How the data were processed

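RNA from aortas of 3 WT and 3 Sirt2-KO mice was sequenced. The authors deposited FPKM values, per the file headers, in 14083 rows that carry a gene name and no identifier. The submitters' processing notes name Bowtie 0.12.2 and the build mm9, with no role, and neither a quantifier nor a filter on low values is stated there. No row had a variance under 1. The files hold no counts, so the depth of each library is unknown and counting error is not given. No 2 columns were identical.

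Here 39 rows whose names had become dates were left out, rows of one name were summed, and genes averaging 1 FPKM or more were compared on log2(FPKM + 1) with limma 3.58.1 in R 4.3.3 (trend, two-sided, Benjamini-Hochberg over all tested genes, threshold 0.05). The step was tested on simulated data. The members, lists and tests were chosen with earlier results of these data known. Named are all members, Sirt2, Acta2, Myh11 and Pdgfra, and the 3 genes most like Igf1. Of each pathway list, the genes that passed and the 2 next by p are named. Insr, Stat5a, Airn and the genes most like other members were added after their values were seen. Alternatives changed the pseudocount, filter, scaling, spread model, weights, row choice, replicate block and each mouse. Figures were drawn with matplotlib 3.10.9.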

Additional observations from a re-analysis of the deposited data

How the results depend on the processing

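The number of IGF axis genes that passed went from 2 to 1 with quantile normalization, median-of-ratios scaling or no trend in the spread, to 5 with arrayWeights (Igfbp2, Igfbp5 and Igfbp6 besides), to 0 with the highest row of each gene name, and to between 0 and 2 with 1 mouse left out. Pathway genes that passed went from 3 to 12 with arrayWeights, to 1 with the highest row and to between 1 and 3 with 1 mouse left out, and single member rows from 0 to at most 1. Over all genes the count of 250 became 1114 with arrayWeights, 151 with the highest row and lay between 28 (Sirt2-KO replicate 7 left out) and 342 (Sirt2-KO replicate 4 left out) with 1 mouse fewer; leaving out Sirt2-KO replicate 8, WT replicate 2 or WT replicate 8 gave 29, 71 or 148. For Igfbp4 the adjusted p in limma of 0.0381 became 0.0549 with quantile normalization, 0.0501 with median-of-ratios scaling, 0.0525 without the trend and 0.0545 with its highest row.

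The groups were apart in 5 of the 8 members, not 6, with quantile normalization or median-of-ratios scaling. Of the 8 members, 7 kept their direction under all 16 alternatives. The log2 difference of Igfbp3 turned from -0.00 to 0.0126 with a pseudocount of 0.1 FPKM, 0.0328 with quantile normalization, 0.0605 with median-of-ratios scaling and 0.21 with arrayWeights, and ranged from -0.47 to 0.45 with 1 mouse left out. The causes were not tested. With the replicate number as a replicate block, 3 of 8605 genes passed and 0 members or pathway genes. Only numbers 4 and 8 are shared, and 1 residual degree of freedom is left. The deviations of those pairs from their group means correlated at -0.0493 and -0.452, and those of pairs with unlike numbers at -0.312 to 0.354. With 3 aortas in each group these values cannot decide whether a shared number marks a pair or a batch.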

Other observations

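By the same distance between centred log2 profiles over the 6 aortas, the genes most like other members were found after the values were seen. Igfbp4 was closest to Cd163, a scavenger receptor gene of resident macrophages (distance 0.0819, against a median of 0.869 over 5505 genes). Cd163 was at 3.92, 6.85 and 4.21 FPKM in the WT aortas, against 9.49, 17.1 and 22.3 FPKM in the Sirt2-KO aortas. Next came Cygb, the cytoglobin gene (0.149), and the complement gene C2 (0.169). Igfbp5 was closest to Fndc1 (0.137) and Tmem119 (0.138), and Igfbp6 to the dipeptidase gene Dpep1 (0.155) and the actin-severing protein gene Gsn (0.220). Igfbp2 had no close partner, the nearest being Trappc6a at 0.560 and Wisp2 at 0.687.

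Igfbp7 was closest to Ptges3l (0.0285) and to Tpm2, a tropomyosin gene of smooth muscle (0.0343, against a median of 0.344). Tpm2 was at 1484, 1008 and 1476 FPKM in the WT aortas, against 1477, 1138 and 895 FPKM in the Sirt2-KO aortas, so it too was high in Sirt2-KO replicate 4 and low in WT replicate 4 and Sirt2-KO replicate 8. Igfbp3 was closest to Fxyd6 (0.170), Plekha4 (0.180) and the clock gene Per1 (0.193), each highest in WT replicate 4. These distances describe 6 aortas and carry no test.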
